A study of Mus musculus with 6 samples.

Results

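The genes described here are Il10, its receptor chains Il10ra and Il10rb, the kinases Jak1 and Tyk2 that the receptor uses, and Maf, a transcription factor of Il10, in peripherally induced regulatory T (pTreg) cells with and without Blimp1. They are 6 of the 19057 genes that a probe with a single gene symbol represents on the array, and all 6 are among the 9593 genes tested. Probes were matched by symbol in the platform annotation, which gave 11 probes, 9 of them above background on at least 2 arrays. The members were chosen by the CKO and Ctrl intensities of this contrast, which were known, so their levels and differences between genotypes are given as a description, without a test.

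RNA of 6 samples was hybridized to Illumina MouseWG 6v2 bead arrays, 3 of control (Ctrl) and 3 of Blimp1-deficient (CKO) cells. Ctrl cells were Prdm1+/+ CD4-Cre+ and carried Thy1.1, and CKO cells were C57BL/6 Prdm1 flox/flox CD4-Cre+ and carried Thy1.2. Both groups therefore express Cre from the CD4 promoter, which acts in all developing T cells and so before transfer, and both carry a GFP reporter of Foxp3. Naive CD4+ T cells of both genotypes, taken from pooled spleen and lymph nodes of young adult donors, were given together to RAG1-/- mice, which make no T or B cells of their own but keep their myeloid and NK cells. CD4+ Foxp3-GFP+ cells of each genotype were sorted weeks later. The fields of the labels name the cells both peripheral Treg and iTreg, and the letters P+I stand only in the labels of replicates 2 and 3.

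IL-10 is an anti-inflammatory cytokine that Treg cells need to restrain inflammation at the gut surface. It binds as a dimer to IL-10RA, the chain that recognizes the ligand and associates with JAK1, and to IL-10RB, which associates with TYK2 and also serves receptors of IL-22, IL-26 and the lambda interferons. The kinases then phosphorylate STAT3, which switches on target genes such as Socs3. Blimp1, the product of Prdm1, is known as an activator of Il10 in Treg cells, and MAF drives Il10 in many T cell types.

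Values are normalized intensities on a linear scale. The background level of an array, set by its olfactory and vomeronasal receptor probes, lay between 6.18 and 9.55, and from 32.3% to 38.3% of probes were above it. All 9 T and Treg markers with a probe were above background, and their summed intensity was 22790 to 26071 on the Ctrl and 16018 to 17971 on the CKO arrays. These sums include Ctla4, at 8549, 7043 and 6201 in Ctrl and 3581, 3845 and 2621 in CKO replicates 1, 2 and 3. The markers did not all follow the sums. Thy1 read 3203, 3899 and 3918 in Ctrl and 4547, 3325 and 5229 in CKO replicates, higher in CKO cells in replicates 1 and 3. The 4 B and plasma cell markers stayed near background, with sums of 10.4 to 22.6 on Ctrl and 18.1 to 30.0 on CKO arrays. Of 8 myeloid markers, 6 were above background on at least 2 arrays, with sums of 3492 to 32928 on Ctrl and 2698 to 23324 on CKO arrays, and Itgam and Adgre1 were not above background on any array. Other markers above background on all 6 arrays were the erythroid Hba-a1 (531 to 1858), Cd8b1 (544 to 1031) and Kit (55.5 to 230). Cd8a was not above background on any array. Prdm1 intensities were 18.9, 50.9 and 49.2 in Ctrl replicates 1, 2 and 3 and 561, 341 and 704 in the CKO replicates. The position of that probe relative to the deleted part is not known here, and its level checks nothing about the deletion. The brightest Foxp3 probe read 480, 212 and 141 in Ctrl and 433, 165 and 216 in CKO replicates. A dimmer Foxp3 probe, above background on all 6 arrays, read 67.9, 35.7 and 48.6 in Ctrl and 30.9, 19.0 and 37.8 in CKO replicates. It was lower in the CKO sample of each pair, unlike the brightest probe. The remaining Foxp3 probes were above background on at most 1 array. Il2, a cytokine gene that stimulated T cells transcribe within hours, read between 6980 and 13107 on the 6 arrays. It read 9308 and 8597 on those of replicate 1. Whether the cells of replicate 1 were stimulated is not given by the labels and was not tested.

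Il10, the ligand, was far brighter in every Ctrl than in every CKO sample. Its single probe read 5935, 3203 and 5904 in Ctrl replicates 1, 2 and 3. In the CKO replicates it read 128, 99.2 and 106. The groups lay far apart, and Ctrl replicate 2 was the dimmest of its group while the CKO values were close together. Ctrl cells had a mean of 5014 ± 1569 (SD, n = 3), and CKO cells one of 111 ± 14.9 (SD, n = 3), a log2 difference of -5.45 (SE 0.31), or 43.7-fold.

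Paired by replicate number, the CKO sample kept 2.15%, 3.10% and 1.80% of the Il10 intensity of its Ctrl partner. The log2 differences of the pairs were -5.54, -5.01 and -5.79, so the pair of replicate 2 differed least. Il10 was not at background in CKO cells: it read 17.0, 10.8 and 12.0 times the background level of the array in CKO replicates 1, 2 and 3, against 961, 369 and 618 times in Ctrl. In bulk RNA, fewer Il10-expressing cells and less Il10 RNA per cell cannot be told apart.

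**Figure D1:**
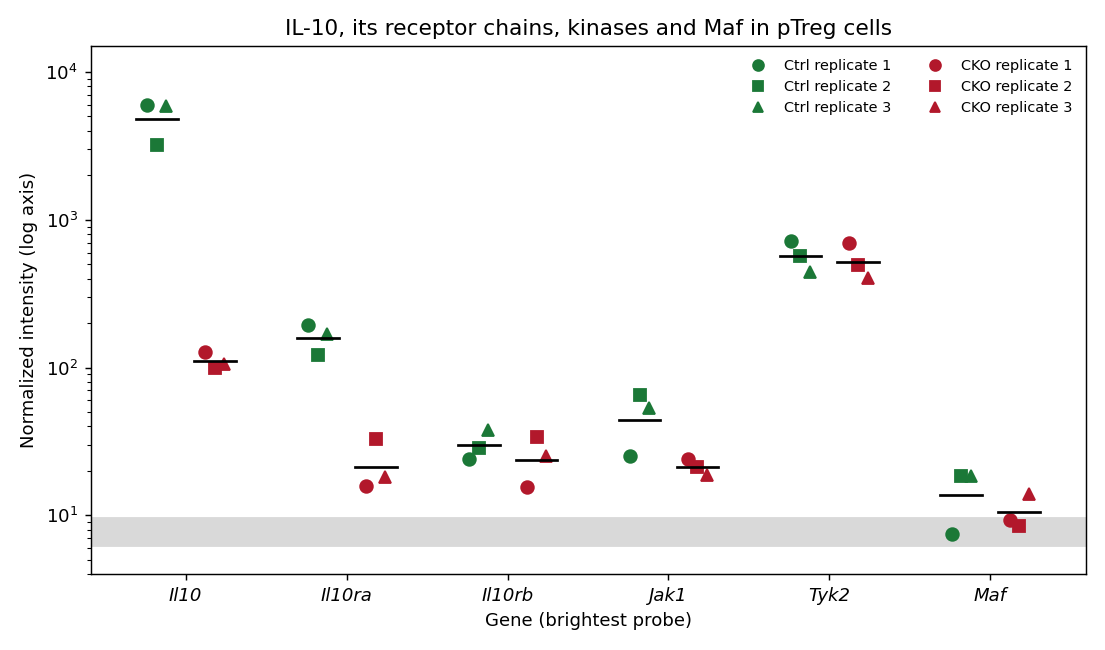
Normalized intensity (log axis) of the brightest probe of each member on the 3 Ctrl (green) and 3 CKO (red) arrays. Symbols mark the replicate, black bars show the mean log2 value, and grey shading covers the range of background levels, 6.18 to 9.55. Il10 and Il10ra separate the genotypes clearly, Jak1 separates them narrowly, and Il10rb, Tyk2 and Maf overlap. Heights of different genes cannot be compared, since each probe has its own brightness.

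Some myeloid transcripts differed between replicate numbers, and the markers did not all follow one order. S100a8, a gene of neutrophils and monocytes, read 14067, 1865 and 20847 in Ctrl replicates 1, 2 and 3, and 8260, 1083 and 15919 in the CKO replicates. S100a8 was thus lower in the CKO sample of each pair, and lowest in replicate 2 in both genotypes. S100a9, the partner of S100a8 in calprotectin, read 6416, 497 and 9513 in Ctrl and 3216, 442 and 5438 in CKO replicates. It followed the same order of replicates and was also lower in the CKO sample of each pair. Lyz2, the lysozyme gene of macrophages, read 667, 29.1 and 159 in Ctrl and 248, 60.3 and 132 in CKO replicates, and Cd14 read 1363, 21.8 and 941 in Ctrl and 571, 43.1 and 532 in CKO replicates. Both were thus higher in the CKO sample of replicate 2 and lower in those of replicates 1 and 3. Cst3 hardly differed by genotype, at 931, 1052 and 1440 in Ctrl and 952, 1054 and 1269 in CKO replicates. Csf1r, the receptor of macrophage growth factor, was dim and highest among Ctrl samples in replicate 2, at 10.0, 17.6 and 13.8. These transcripts were read in cells sorted on CD4 and Foxp3-GFP. The part of these transcripts in the Il10 difference was not tested.

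**Figure D2:**
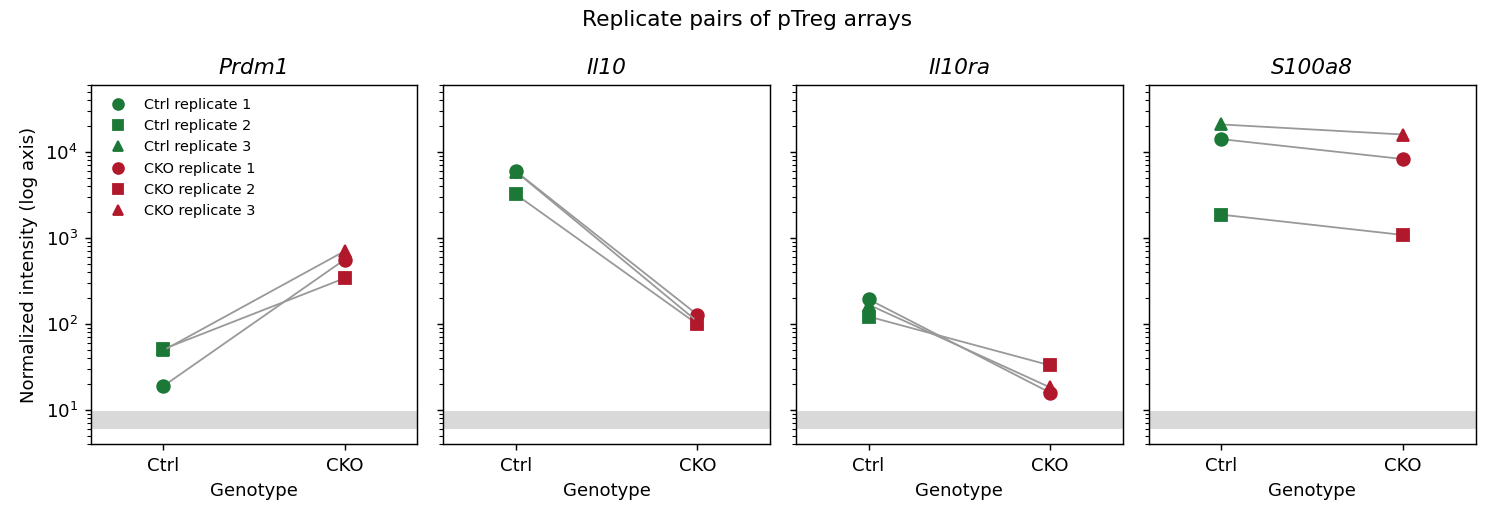
Normalized intensity (log axis) of Prdm1, Il10, Il10ra and S100a8 in Ctrl (green) and CKO (red) cells. Lines join the samples of a replicate number and grey shading covers the range of background levels. The pair of replicate 2, drawn as squares, has the smallest difference for Prdm1, Il10 and Il10ra and the lowest S100a8 in both genotypes.

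Il10ra, the ligand-binding chain, was the other member with a wide separation. It read 194, 122 and 168 in Ctrl replicates 1, 2 and 3. The CKO replicates read 15.9, 33.0 and 18.3. The highest CKO value, replicate 2, stood opposite the lowest Ctrl value, also replicate 2. Ctrl cells had a mean of 161 ± 36.2 (SD, n = 3), and CKO cells one of 22.4 ± 9.28 (SD, n = 3), a log2 difference of -2.90 (SE 0.38), or 7.45-fold.

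The pairs differed in Il10ra by -3.61, -1.89 and -3.20 on the log2 scale, and the CKO sample kept 8.21%, 27.1% and 10.9% of its partner's intensity. CKO cells were close to the detection limit for Il10ra, at 2.11, 3.60 and 2.05 times background in replicates 1, 2 and 3, whereas Ctrl cells stood at 31.3, 14.1 and 17.6 times. On the scale log2(value + 16), which compresses dim values, the difference was -2.21.

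Il10rb, the chain shared with other cytokines of the family, showed no separation. Its brighter probe read 24.2, 28.6 and 37.9 in Ctrl and 15.6, 33.9 and 25.4 in CKO replicates 1, 2 and 3. The log2 difference was -0.32, with an SE of 0.38 from the SDs of both groups. In limma with the replicate number as a block the SE was 0.24. The pairs disagreed in sign, at -0.63, 0.25 and -0.58. The dimmer Il10rb probe was above background in 1 Ctrl and 2 CKO samples. Its log2 difference was 0.17 (SE 0.56), with pair differences of -0.87, 1.49 and -0.10. Both probes overlapped between genotypes, and the pair of replicate 2 was the one with more Il10rb in CKO cells for both.

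Jak1, the kinase bound to the ligand-binding chain, was lower in CKO cells on its single informative probe. The values were 25.3, 65.2 and 53.4 in Ctrl replicates 1, 2 and 3. In the CKO replicates they were 24.0, 21.3 and 18.8. The groups did not overlap, but Ctrl replicate 1 stood next to the highest CKO sample. Jak1 was dim, at 4.10, 7.52 and 5.60 times background in Ctrl and 3.19, 2.32 and 2.11 times in CKO replicates 1, 2 and 3. Means were 48.0 ± 20.5 (SD, n = 3) and 21.3 ± 2.59 (SD, n = 3), a log2 difference of -1.07 (SE 0.43), or 2.10-fold.

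The Jak1 difference lay in replicates 2 and 3, with -1.62 and -1.51 on the log2 scale, while replicate 1 gave -0.08. Replicate 1 is also the pair on a slide of its own, the pair without P+I in its labels and a pair normalized apart from the others before deposit, and these cannot be told apart. With 1 array of each genotype on that slide, whether the Jak1 effect differs between slides is given without a test. The other 2 Jak1 probes were not above background on any array.

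Tyk2, the kinase bound to the shared chain, differed little between genotypes on all of its 3 probes. The brightest read 716, 571 and 443 in Ctrl and 698, 493 and 401 in CKO replicates 1, 2 and 3. The samples fell in the same order in both genotypes, and the pair differences of -0.04, -0.21 and -0.15 were the tightest of any member (SD 0.088, n = 3). The log2 difference of group means was -0.13 (SE 0.31). The dimmer probes gave -0.09 (SE 0.33) and 0.01 (SE 0.46). Without Ctrl replicate 1 or without CKO replicate 3 the brightest probe gave a difference above 0, at most 0.05.

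Maf, the transcription factor, was too dim on its only probe for a comparison. It read 7.53, 18.5 and 18.6 in Ctrl and 9.27, 8.53 and 13.9 in CKO replicates 1, 2 and 3. The probe was above background in all 3 Ctrl and in 2 CKO samples, and nowhere more than 2.14 times background. The log2 difference was -0.38 (SE 0.48), with pair differences of 0.30, -1.02 and -0.42. A change in Maf was not detectable at this signal.

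**Figure D3:**
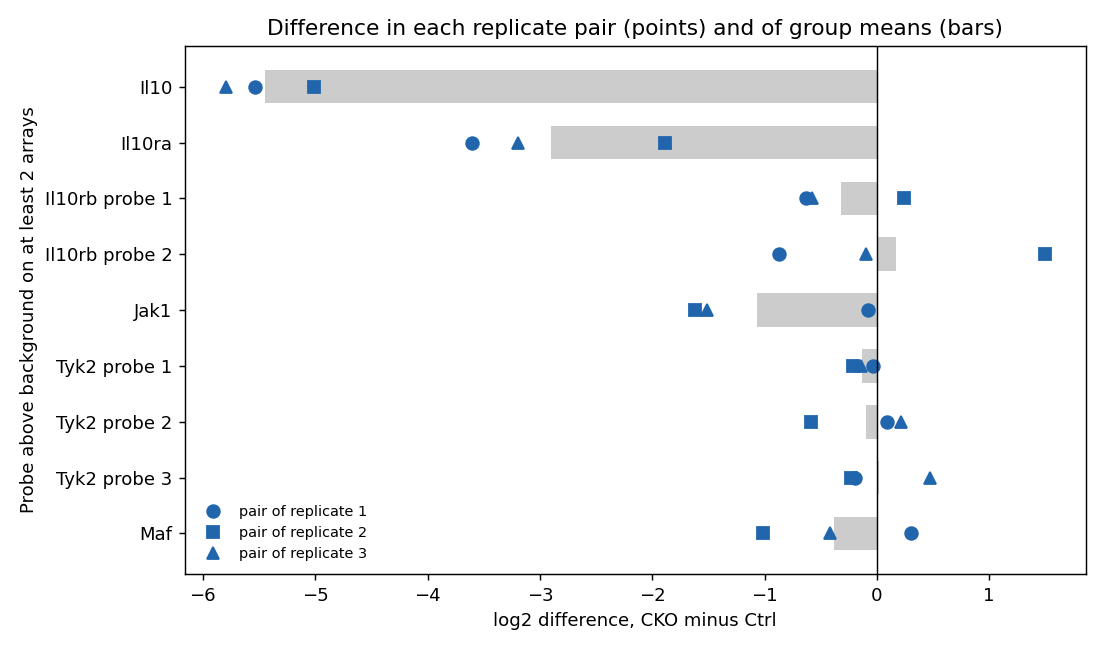
Log2 difference between the CKO and the Ctrl sample of each replicate number (points) and between group means (grey bars) for the 9 member probes above background on at least 2 arrays. Il10 and Il10ra lie far below 0 in all 3 pairs, the Tyk2 probes gather near 0, and the Jak1 pair of replicate 1 stands apart at -0.08 from the others at -1.62 and -1.51.

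Counted together, 3 of 6 members, Il10, Il10ra and Jak1, had all CKO values below all Ctrl values, and 0 had them above. Over all 9593 genes the groups did not overlap with CKO lower in 7.08% and with CKO higher in 5.95%. This contrast was used to choose the members, and the count is given only beside that background. The median size of the log2 difference was 0.72 over the 6 members and 0.23 over all genes. A larger change than that of Il10 was seen in 0 genes, than that of Il10ra in 11 genes and than that of Jak1 in 3.52% of genes. For Il10rb, Tyk2 and Maf the corresponding shares were 35.4%, 68.8% and 29.1%.

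The other genes of the pathway were described through gene lists, and here only a gene with limma's adjusted p under 0.05 is said to rise or fall. At that threshold 0.156% of all genes fell and 0.115% rose. Under the study's own thresholds, an unadjusted p under 0.05 with at least a 1.5-fold change, 4.34% of all genes were lower and 3.09% higher. An unadjusted p under 0.05 alone, in either direction, was reached by 8.06% of all genes. The median log2 difference of all genes was 0.02, and 47.6% of genes were below 0.

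Few other genes of the IL-10 family were above background. Of 11 further ligand and receptor chain genes 10 had a probe, and 3 were tested, Il24, Il20rb and Ifnlr1, all near background. Of these 0 passed in limma at an adjusted p under 0.05 and 0 at an unadjusted p under 0.05, and their median log2 difference was 0.08. Il20rb, a chain of the receptors for IL-19, IL-20 and IL-24, read 15.6 ± 2.21 (SD, n = 3) in Ctrl samples against 12.5 ± 8.75 (SD, n = 3) in CKO samples. Ifnlr1, the partner of IL-10RB in the lambda interferon receptor, was above background in 2 CKO samples and in 0 Ctrl samples. The probe of Il22, another ligand that signals through IL-10RB, was above background on 1 array.

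Among 7 tested Janus kinases and STAT factors other than the members, 0 passed at an adjusted p under 0.05 in limma. An unadjusted p under 0.05 was reached by 2 of the 7, beside 8.06% of all genes. The median log2 difference of the 7 was -0.05. All CKO values lay below all Ctrl values for 1 and above for 1, beside 7.08% and 5.95% of all genes. Stat3, the factor that carries the IL-10 signal, read 1949, 1705 and 1071 in Ctrl and 1212, 1401 and 846 in CKO replicates 1, 2 and 3. The groups overlapped, and the log2 difference of -0.44 (SE 0.31) had an adjusted p of 0.86. Jak3, which pairs with JAK1 on receptors of the common gamma chain, read 273 ± 42.0 (SD, n = 3) in Ctrl samples against 178 ± 31.2 (SD, n = 3) in CKO samples and met the study's thresholds, with an adjusted p of 0.52. Stat4, the factor downstream of IL-12, read 489 ± 77.8 (SD, n = 3) and 1189 ± 291 (SD, n = 3), with a log2 difference of 1.27 (SE 0.26) and an adjusted p of 0.14.

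Of 13 tested chains of other receptors that signal through JAK1 or TYK2, 0 passed at an adjusted p under 0.05 in limma. An unadjusted p under 0.05 was reached by 3 of the 13, beside 8.06% of all genes. Of the 13, 11 had a log2 difference below 0, with a median of -0.43. All CKO values lay below all Ctrl values for 3 of the 13, beside 7.08% of all genes. Ifngr1, the ligand-binding chain of the interferon gamma receptor, read 352, 156 and 239 in Ctrl and 87.9, 65.2 and 103 in CKO replicates 1, 2 and 3. The groups did not overlap, and the log2 difference was -1.49 (SE 0.34), with an adjusted p of 0.18 without and 0.032 with the replicate number as a block. Il6st, the gp130 chain of the IL-6 and IL-27 receptors, read 79.2, 112 and 45.2 in Ctrl and 36.0, 24.9 and 26.5 in CKO cells, with an adjusted p of 0.25. Il27ra, the other chain of the IL-27 receptor, read 835 ± 90.3 (SD, n = 3) in Ctrl samples against 567 ± 32.0 (SD, n = 3) in CKO samples, with an adjusted p of 0.49.

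**Figure D4:**
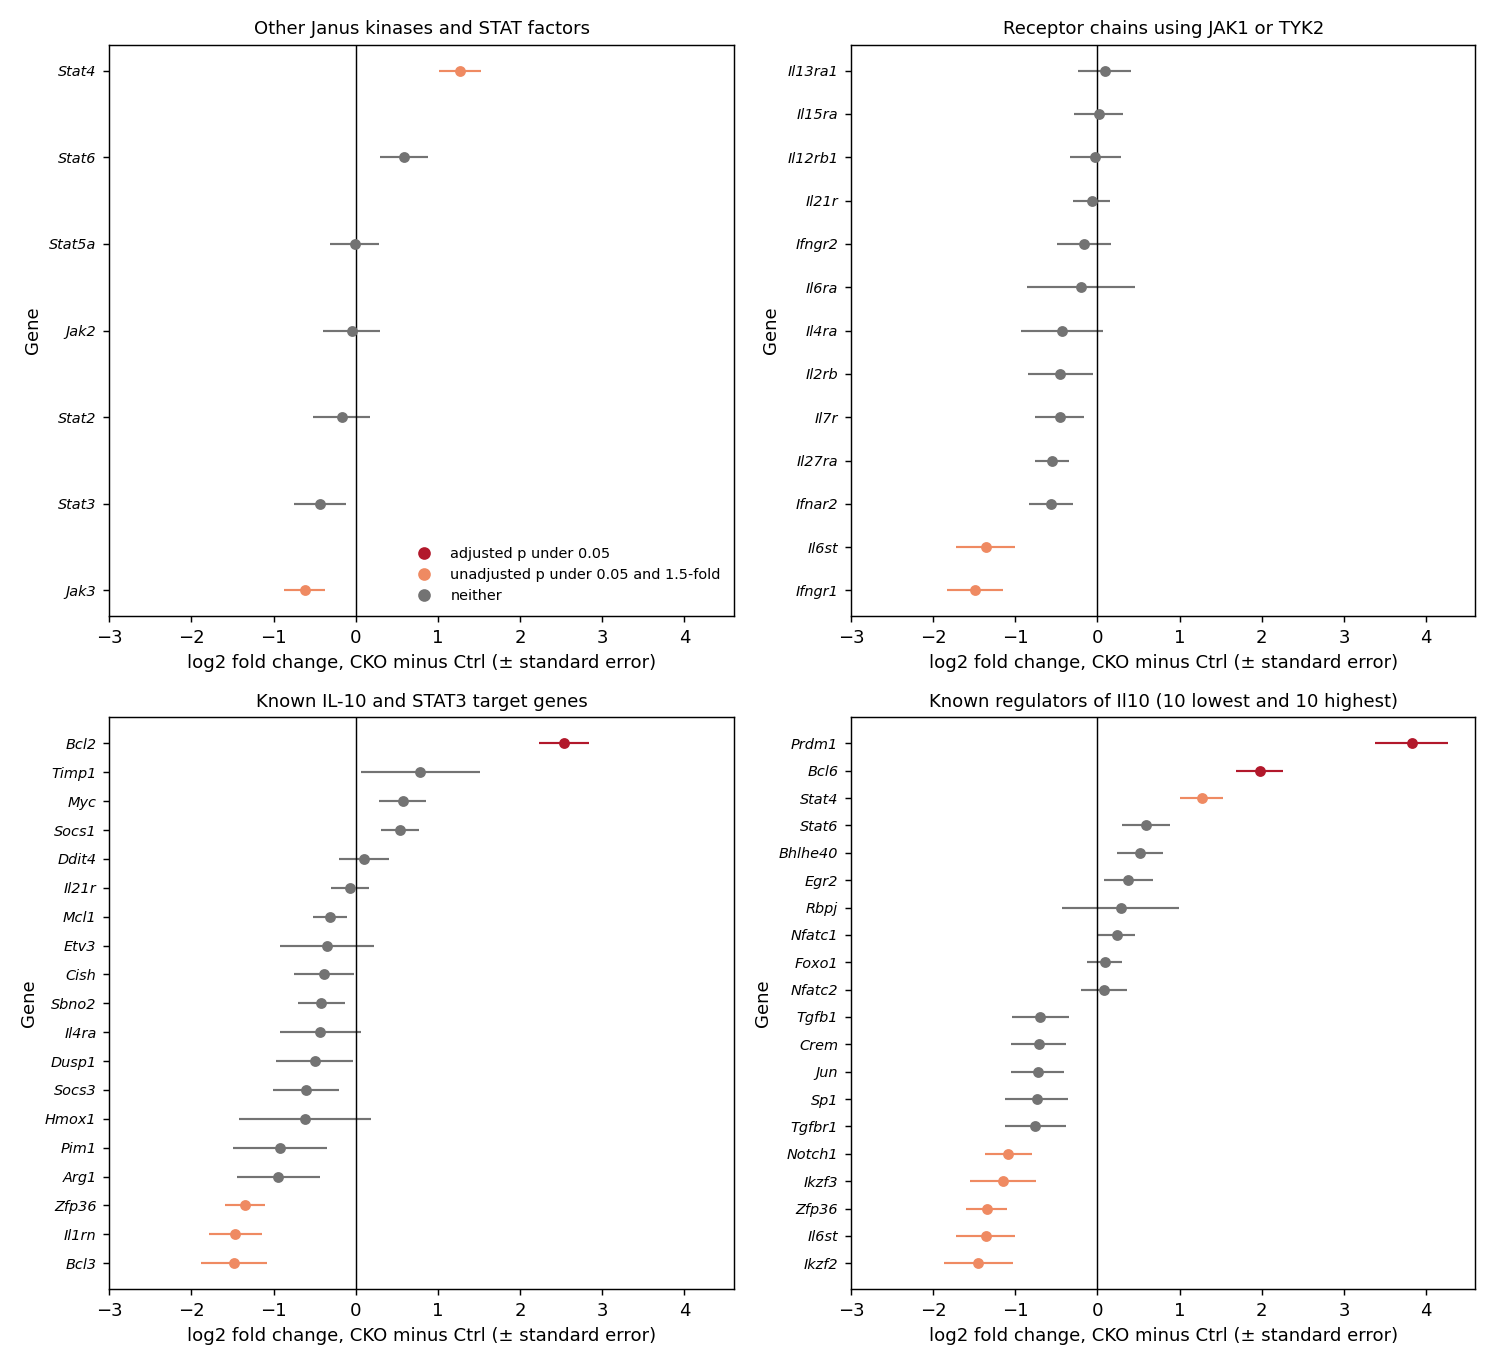
Log2 fold change (CKO minus Ctrl, ± standard error from limma) of tested genes of 4 pathway lists. Of the Il10 regulators only the 10 lowest and 10 highest are drawn. Red marks an adjusted p under 0.05, orange an unadjusted p under 0.05 with at least 1.5-fold, and grey neither. Bcl2, Prdm1 and Bcl6 are the red points, all above 0.

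Of 19 tested genes known as targets of IL-10 and STAT3, mostly from macrophages, 1 rose and 0 fell. A log2 difference below 0 was found for 14 of the 19, and the median was -0.42. All CKO values lay below all Ctrl values for 5 and above for 2, beside 7.08% and 5.95% of all genes. Bcl2, an inhibitor of apoptosis, rose, with 24.5 ± 8.33 (SD, n = 3) for Ctrl against 137 ± 20.6 (SD, n = 3) for CKO, a log2 difference of 2.53 (SE 0.30) with an adjusted p of 0.028. Its 5 probes gave log2 differences of 0.99 to 2.53. Bcl2 had an adjusted p of 0.12 with arrays scaled to the median and of 0.055 with slide as a block. Of the fits without a single array, it passed without Ctrl replicate 2, at 0.042, and without none of the others, the highest adjusted p being 0.15. Socs3, the feedback inhibitor of cytokine receptors and a textbook STAT3 target, read 555, 360 and 558 in Ctrl and 203, 567 and 275 in CKO replicates 1, 2 and 3. It was lower in CKO cells in replicates 1 and 3 and higher in replicate 2, and the log2 difference of -0.60 (SE 0.40) had an adjusted p of 0.83.

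Lower values under the study's thresholds, without passing the adjusted p in the fit without a block, were found for 3 of these targets. Over all genes, 4.34% were lower under those thresholds. Zfp36, which encodes an RNA-binding protein that destabilizes cytokine mRNAs, read 2580, 1795 and 1774 in Ctrl and 921, 707 and 767 in CKO replicates 1, 2 and 3. All pairs differed alike, from -1.49 to -1.21, and the adjusted p was 0.11 without and 0.024 with the replicate block. Il1rn, the IL-1 receptor antagonist, read 362 ± 61.0 (SD, n = 3) and 136 ± 45.2 (SD, n = 3), with adjusted p-values of 0.16 and 0.049. The mean over its probes gave a log2 difference of -0.80 in place of -1.46. That mean includes a probe near background with a difference of 0.17, and the other bright Il1rn probe gave -1.09. Bcl3, a nuclear IkB protein, read 72.8 ± 33.4 (SD, n = 3) and 24.5 ± 6.27 (SD, n = 3), with adjusted p-values of 0.28 and 0.029. Myeloid cells also express Il1rn, and their marker values stand above. Their part in these differences was not tested.

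Of 46 tested factors and receptors known to act on Il10 transcription or mRNA, 2 had a higher signal at an adjusted p under 0.05 in limma. These were Bcl6 and Prdm1, the gene deleted in the CKO cells. Of the 46, 0 fell and 31 had a log2 difference below 0, with a median of -0.23. All CKO values lay below all Ctrl values for 9 and above for 3, beside 7.08% and 5.95% of all genes. Prdm1, whose own values stand above, had a log2 difference of 3.82 (SE 0.45) and an adjusted p of 0.028. Bcl6, the repressor that opposes Blimp1 in lymphocytes, rose, with 108 ± 23.9 (SD, n = 3) for Ctrl against 429 ± 107 (SD, n = 3) for CKO, a log2 difference of 1.98 (SE 0.28) with an adjusted p of 0.048. That of Bcl6 was 0.051 on the deposited values as they stand, 0.12 with arrays scaled to the median, 0.055 with the mean over probes, 0.082 with the slide as a block and 0.079 or more without any single array. Prdm1 passed without Ctrl replicate 2, at 0.047, and gave 0.062 to 0.15 without any other single array.

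Batf, Irf4 and Gata3, named with knowledge of their values, overlapped between genotypes. Batf, which opens the Il10 locus with IRF4, read 1409, 1764 and 1307 in Ctrl and 957, 1214 and 1404 in CKO replicates 1, 2 and 3. Irf4 read 3501, 3614 and 2227 in Ctrl and 3014, 2477 and 2242 in CKO cells. Their log2 differences were -0.33 (SE 0.25) and -0.25 (SE 0.27), with adjusted p-values of 0.87 and 0.93. Gata3, which acts on Il10 in Th2 cells, had a log2 difference of 0.00 (SE 0.31).

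Under the study's thresholds 5 of these regulators were lower and 3 higher in CKO cells, beside 4.34% and 3.09% of all genes. Notch1, a receptor that raises Il10 in T cells, read 309, 352 and 330 in Ctrl and 128, 127 and 231 in CKO replicates 1, 2 and 3, with an adjusted p of 0.26. Ikzf2, which encodes the Treg factor Helios, read 713 ± 175 (SD, n = 3) and 286 ± 177 (SD, n = 3), with an adjusted p of 0.31. Ikzf3, which encodes Aiolos, read 912, 536 and 428 in Ctrl and 437, 237 and 185 in CKO replicates 1, 2 and 3. The CKO sample was the lower one in all 3 pairs of Ikzf3, and the adjusted p was 0.44 without and 0.035 with the replicate block. Ikzf2 and Ikzf3 are named with knowledge of their values. The remaining genes are Zfp36 and Il6st on the lower side and Prdm1, Bcl6 and Stat4 on the higher side.

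Few neighbours of Il10 and Il10ra were bright enough to be tested. Of the 10 genes on either side of Il10 in the RefSeq gene order, 11 had a probe and 6 were tested, among which 0 passed at an adjusted p under 0.05 in limma and 0 at an unadjusted p under 0.05. Mapkapk2, a kinase of the p38 pathway next to Il10, read 4054 ± 195 (SD, n = 3) in Ctrl samples against 2970 ± 880 (SD, n = 3) in CKO samples, for a log2 difference of -0.49 (SE 0.27). Rassf5, a regulator of T cell adhesion, had a log2 difference of 0.43 (SE 0.23). All CKO values lay below all Ctrl values for 2 of these 6, Mapkapk2 and Ikbke, beside 7.08% of all genes. They lay above for 1, Rassf5, beside 5.95% of all genes. Of the 20 neighbours of Il10ra 12 had a probe and 3 were tested, with 0 passing at either p. Cd3e, a chain of the T cell receptor complex, had a log2 difference of -0.44 (SE 0.26).

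Il10ra lies on the chromosome of Thy1, at which the Ctrl and CKO donors carried different alleles. Of the 29 tested genes between Il10ra and Thy1, 0 passed at an adjusted p under 0.05 in limma, 1 was lower and 1 higher under the study's thresholds, 14 had a log2 difference below 0 and the median was 0.09. Whether the Il10ra probe overlies a sequence difference between the donors was not tested.

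The genes with the profile most like that of Il10 were found by the root mean square difference of log2 values, each centred on its own mean, over the 6 arrays. The closest was Ncmap at 0.9985, followed by Sytl2, Snx9, Ppp1r3b and Gpr83 at 1.29 to 1.34. Ncmap read 413, 218 and 148 in Ctrl and 30.7, 11.1 and 13.0 in CKO replicates 1, 2 and 3. Its log2 difference of -3.85 was smaller than that of Il10.

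Distances were smaller for Il10ra. The distance also depends on the size of the log2 difference, which was larger for Il10 than for any other gene. The distances of Il10ra can therefore not be set against those of Il10. Gpr146, which encodes an orphan G protein-coupled receptor, lay at 0.35 and read 134, 73.4 and 95.3 in Ctrl and 17.0, 23.2 and 18.5 in CKO replicates 1, 2 and 3, so that replicate 2 again held the lowest Ctrl and the highest CKO value. Ky, Sytl2, Pik3cg and Socs2 followed at 0.42 to 0.52. Ky was below background in every CKO sample, so its values there are those of the floor. Socs2, a feedback inhibitor of cytokine receptors that STAT5 induces, read 1580, 1243 and 1163 in Ctrl and 246, 503 and 339 in CKO cells. Sytl2, which encodes a protein of granule transport, is the gene shared by both sets, with values of 328, 174 and 173 in Ctrl and 33.1, 33.5 and 15.8 in CKO cells.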

How the data were processed

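RNA of sorted pTreg cells was measured on 6 bead arrays, and groups follow the genotype labels. The arrays of a group are biological replicates per the paper. The deposited values are linear intensities that the authors took from Genome Studio, background-subtracted and quantile normalized, the arrays of replicate 1 apart from the others. All value columns belong to these 6 samples.

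Here the 6 columns were quantile normalized together. Probes of olfactory and vomeronasal receptors (1504) set the background of each array at their 95th percentile, which served as a floor before taking log2. Probes above background on at least 2 arrays were kept, and the brightest stood for a gene. Of 45281 probes 34885 have 1 symbol, 18 several and 10378 none, and 34807 were matched to the RefSeq table of GRCm38.p6. Pair differences and member means use floored log2 values. The standard error of a member combines the SDs of both groups.

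Genotypes were compared by lmFit and eBayes of limma (version 3.58.1, under R version 4.3.3) with no block, with Benjamini-Hochberg adjustment over 9593 genes. The steps were run on simulated data with independent noise on each array, so that run does not test them on correlated pairs. Samples of one number pair, since replicates 2 and 3 share a day in their labels and replicate 1 a slide, and deviations of same-numbered samples from group means correlated at 0.51, 0.49 and 0.56 over genes. The replicate block is therefore named where it changes a call.

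The members, lists and tests were chosen with earlier results of these data known. Named were all members, Prdm1 and Foxp3, per list the genes past a threshold (up to 6, or the brightest up to 3), and the 5 profiles most like Il10 and Il10ra. Il2, Batf, Irf4, Gata3, Socs3, Il22, Ikzf2, Ikzf3, Lag3, Pdcd1, Nrp1, Ifng and the marker genes were named after their values were seen. Alternatives changed the scaling, floor, filter, choice of probe, block and samples. With 3 arrays a group, the number of arrays limits precision.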

Additional observations from a re-analysis of the deposited data

How the results depend on the processing

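Under 16 alternatives the log2 difference stayed below 0 for Il10 (-5.74 to -5.26), Il10ra, Il10rb (-0.58 to -0.02), Jak1 (-1.56 to -0.72) and Maf (-0.81 to -0.16), and for Tyk2 in 14 of 16 (-0.35 to 0.05). Il10ra moved by more than its spread under log2(value + 16), to -2.21, and without single arrays gave -3.22 to -2.69.

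Counts of genes at an adjusted p under 0.05 depended on the fit far more. Against 26 genes in all, there were 10 with scaling to the median, 43 with log2(value + 16), 150 without a filter on dim probes, 183 with the replicate block (111 lower, 72 higher) and 16 with the slide as a block. Without single arrays the count was 1 to 14. Without both arrays of replicate 1 it was 0, with 677 at an unadjusted p under 0.05, and then 0 genes passed in each list. In the order of these settings, the IL-10 target list of 1 gene had 0, 2, 4, 4 and 0, and 0 to 1 without single arrays. The list of Il10 regulators, 2 genes, had 1 with scaling to the median, on deposited values, with the mean over probes and with the slide block, 5 without a filter, 4 with the replicate block and 0 to 1 without single arrays. Lists with 0 genes gained calls in some settings: without a filter 1 Janus kinase or STAT factor, 2 receptor chains, 1 Treg mediator and 4 cytokines, with the replicate block 1 receptor chain, 1 Treg mediator and 2 cytokines, and with log2(value + 16) 1 cytokine. Cytokines gave 0 to 1 without single arrays. The replicate block changed the call of no other named list gene than those for which its value is given. Il10ra in CKO cells, Il10rb, Jak1 and Maf are limited by signal over background.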

Other observations

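Of 18 tested genes for other molecules by which Treg cells suppress, 16 had a log2 difference below 0, with a median of -0.58 against 0.02 over all genes, but 0 passed at an adjusted p under 0.05 in limma and 4 had an unadjusted p under 0.05, a share to set beside 8.06% of all genes. CKO values lay below all Ctrl values for 6 of the 18, beside 7.08% of all genes. Pdcd1 and Nrp1 had log2 differences above 0, at 0.36 and 0.26. Ctla4, which strips costimulatory ligands from antigen-presenting cells, read 8549, 7043 and 6201 in Ctrl and 3581, 3845 and 2621 in CKO replicates 1, 2 and 3, with an adjusted p of 0.18 without and 0.043 with the replicate block. Tnfrsf18, which encodes GITR, read 3817 ± 1121 (SD, n = 3) and 1575 ± 21.5 (SD, n = 3), with an adjusted p of 0.18. Itgae, the integrin CD103 that holds T cells at epithelia, read 5643, 7854 and 3403 in Ctrl and 3228, 3094 and 2457 in CKO cells, with an adjusted p of 0.49. Lag3, an inhibitory receptor, read 462, 486 and 1323 in Ctrl and 387, 369 and 450 in CKO cells, so its groups did not overlap but its adjusted p was 0.75.

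Cytokine genes of activated CD4 T cells lay on both sides of 0. Of 17 tested, 8 had a log2 difference below 0, with a median of 0.01. In limma 0 passed at an adjusted p under 0.05, while 6 had an unadjusted p under 0.05, against 8.06% of all genes. All CKO values lay below all Ctrl values for 2 and above for 5, beside 7.08% and 5.95% of all genes. Il13, a Th2 cytokine, read 85.1, 109 and 135 in Ctrl and 24.6, 74.5 and 27.5 in CKO replicates 1, 2 and 3, with an adjusted p of 0.29. Il5, another Th2 cytokine, overlapped between the groups and had an adjusted p of 0.51. On the higher side, Lif, an IL-6 family cytokine, read 66.2, 266 and 63.3 in Ctrl and 1358, 1029 and 719 in CKO cells, with an adjusted p of 0.081 without and 0.020 with the replicate block, and 0.019 without Ctrl replicate 2. Tnfsf11, which encodes RANKL, read 544, 474 and 376 in Ctrl and 1188, 1058 and 752 in CKO cells, with adjusted p-values of 0.22 and 0.040. Il17f read 190, 264 and 311 in Ctrl and 1806, 912 and 561 in CKO cells, with an adjusted p of 0.16, and Lta, which encodes lymphotoxin alpha, 262 ± 49.9 (SD, n = 3) and 667 ± 189 (SD, n = 3), also with 0.16. Ifng overlapped widely, at 18891, 4885 and 27726 in Ctrl and 24440, 18347 and 18597 in CKO cells.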
